A study of Zea mays with 4 samples.

Results

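The nicotianamine synthase (NAS) genes of maize were followed in bulk RNA-seq of whole leaf and of leaf protoplasts. The genes described are 5 of the 46430 in the AGPv4 annotation of the B73 genome, selected by identifier: NAS1 (Zm00001d047651), NAS2 (Zm00001d028888), NAS3 (Zm00001d033496), NAS9 (Zm00001d028887) and NAS10 (Zm00001d047658). All material came from the maize inbred line B73, with no transgene and no other genotype, and was taken from the distal 6 cm of leaf 2 of seedlings at the V2 stage grown in a greenhouse. The leaf group held 2 libraries of segments ground whole (leaf 1 and leaf 2), and the protoplast group held 2 libraries of cells freed from such segments by digestion of the walls with cellulases and pectin-degrading enzymes (protoplast 1 and protoplast 2). Each library was a pool of leaves (the sample labels give 6 plants for each protoplast pool, the methods fewer leaves), so the spread between libraries is a spread between pools. The comparison asks whether the mRNA content of isolated protoplasts follows that of whole leaf from sibling plants. Whole leaf was ground at harvest. Protoplasts first passed through a pretreatment with L-cysteine and hours in an enzyme solution with beta-mercaptoethanol, so the groups also differ in this handling.

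Nicotianamine synthase joins molecules of S-adenosylmethionine (SAM) into nicotianamine, a small chelator of iron, zinc and copper. In all plants nicotianamine keeps these metals soluble as they move between cells and through the phloem. Grasses also convert it, through nicotianamine aminotransferase, into phytosiderophores of the mugineic acid family, which roots secrete to take up ferric iron. In maize, NAS1 and NAS2 are known as genes of iron-deficient roots, and NAS3 as a gene that differs from them in being expressed in leaves.

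The 5 genes lie in 3 places of the genome. NAS9 (chr1:49660780-49662585) and NAS2 (chr1:49731260-49733065) stand on the plus strand of chromosome 1, 68.7 kb apart with 1 annotated gene between them, and each has a counted length of 1806 bp. NAS3 lies elsewhere on that chromosome (chr1:264462071-264463236, minus strand, 1166 bp). NAS1 (chr9:138081277-138082483, 1207 bp) and NAS10 (chr9:138349816-138351020, 1205 bp) stand on the plus strand of chromosome 9, 267.3 kb apart with 5 genes between them. Each of the 5 is annotated as a single exon interval, and 0 other annotated genes overlap it. NAS6 (Zm00001d047639, chr9:137824154-137836628, minus strand), a further annotated nicotianamine synthase with 17 exon intervals, lies 244.6 kb from NAS1 and is given beside the family.

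Counts in leaf 1 could be used for 18609 genes, since its table as analysed here stops on chromosome 3 and has 10 damaged lines. NAS2, NAS3 and NAS9 therefore had values in 4 libraries, whereas NAS1, NAS10 and NAS6 had values in leaf 2 and the 2 protoplast libraries. Totals in the 3 complete libraries ranged from 41792981 to 47061988 counts, and a count of 3 stood for 0.0606 to 0.0811 CPM (the counts-per-million unit, after TMM scaling). Markers of the leaf cell types were compared on the same scale. The 6 mesophyll C4 genes were abundant in both groups, at a summed 60195 CPM in leaf 2 and 67558 and 72281 CPM in protoplasts, and 0 of them passed the limits of the edgeR test described below. PDRP1 passed the limit on adjusted p with 4 libraries (edgeR adjusted p = 0.015) but not that on fold change, at a log2 fold change of 0.50. The 6 bundle sheath C4 genes summed to 26351 CPM in leaf 2 and to 549 and 538 CPM in protoplasts, and 6 of 6 were called as lower. The sucrose transporter genes of phloem loading, SUT1 and SWEET13a to SWEET13c, summed to 775 CPM in leaf 2 and to 10.8 and 6.24 CPM in protoplasts. All 4 were called as lower. Of all genes tested, 23.4% were called as lower with 4 libraries and 20.4% with the complete libraries. No marker of the 3 lists was at 0 in any library, the lowest count being 5. In libraries of this kind, fewer cells of a type and less RNA per cell cannot be told apart.

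Leaf and protoplasts held different members of the family. NAS3 was the only member with more than 1 count in a leaf library, as far as each was counted there, and it fell to 4 counts over both protoplast libraries. NAS9 and NAS2 together had 1 count over both leaf libraries and 71 over both protoplast libraries. NAS10 and NAS1 were at 0 in leaf 2 and had between 2 and 5 counts in each protoplast library. The NAS3 counts were 14812 and 12456 (leaf 1 and leaf 2) against 1 and 3 (protoplast 1 and protoplast 2). The NAS9 counts in this order were 0 and 0 against 31 and 23, and those of NAS2 were 1 and 0 against 12 and 5. For these 3 genes the groups did not overlap, but the share of all genes without overlap was not counted, so this is a description. An exact permutation p of 2 libraries against 2 cannot fall below 0.333. By another measure, 43.0% of the genes tested with 4 libraries passed the limits given below.

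**Figure D1:**
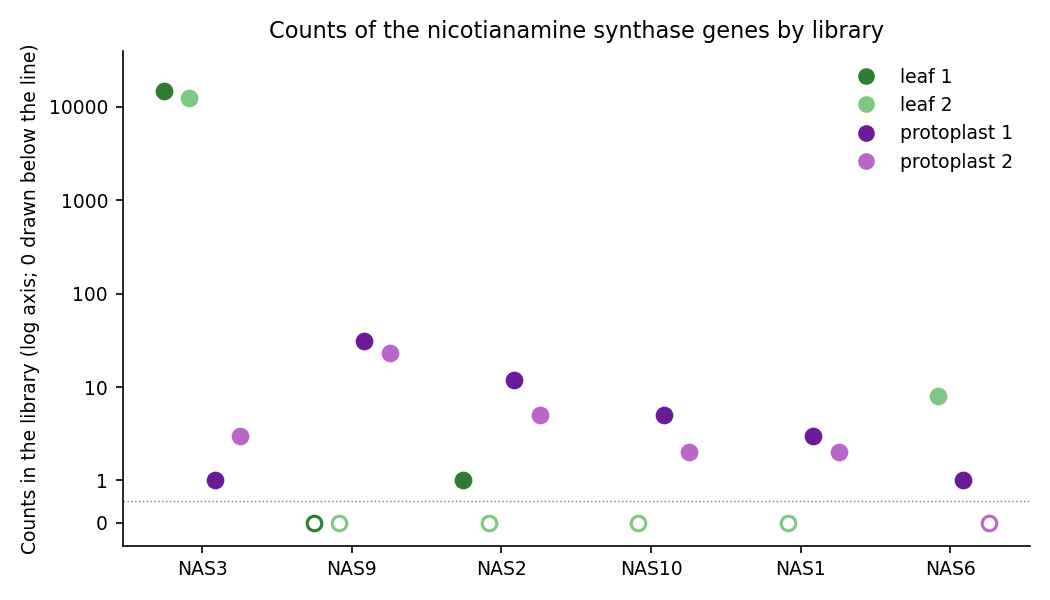
Raw counts (vertical axis, logarithmic, with 0 drawn below the dotted line as an open circle) of the 5 nicotianamine synthase genes and NAS6 in each library. The NAS3 points of leaf lie at 14812 and 12456 and those of protoplasts at 1 and 3, while the NAS9 points of protoplasts lie at 31 and 23 over 0 in leaf. NAS10, NAS1 and NAS6 have no leaf 1 point.

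Changes were tested with edgeR's quasi-likelihood test on the counts, and a gene was called at a Benjamini-Hochberg adjusted p under 0.05 and a log2 fold change (protoplast over leaf) above 1 or below -1. With 4 libraries, 2 of the 3 members with counts in all of them passed the filter on low counts, namely NAS3 and NAS9, and both were called, NAS9 as higher and NAS3 as lower. The background was high, since 43.0% of the 9017 genes tested were called, 19.6% as higher and 23.4% as lower. With the 3 complete libraries, where leaf 2 alone stood for leaf and was assumed to vary like the protoplast libraries, 3 of the 5 members passed the filter and all 3 were called (NAS9 and NAS2 higher, NAS3 lower). In that fit 38.9% of 23262 genes were called, 18.5% as higher (4293 genes) and 20.4% as lower (4754). Scaling by library totals without the trimmed mean of M-values (TMM) turned this split to 3550 and 6666. The share of members called is a count of 2 or 3 genes, and the filter keeps a gene that is high in 1 group only, so the size of each change is given below.

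NAS3, the leaf member, fell by 12.27 on the log2 scale (standard error 0.32, edgeR adjusted p = 5.45e-06), from 721 ± 13.5 CPM (SD, n = 2) to 0.147 ± 0.12 CPM (SD, n = 2). These CPM are on the scale of the 18609 genes counted in all 4 libraries, on which values are higher than on that of the complete libraries. Both protoplast libraries were below both leaf libraries. Since the protoplast libraries held 4 NAS3 counts in all, counting error sets the precision, which the standard error derived from the test does not show. Leaf exceeded protoplasts 5236-fold, with an exact 95% interval of 2045 to 19217 that covers counting error only. As a log2 ratio of protoplast to leaf, this interval ran from -14.23 to -11.00. Leaving out each library in turn gave log2 fold changes from -13.38 without protoplast 2 to -11.55 without protoplast 1. In leaf 2, NAS3 was the 419th most counted of the 27748 genes with a count, and the 369th per kilobase of counted length.

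NAS3 was among the genes with the deepest decreases, and some genes more abundant in leaf fell about as far. Of the 419 genes with at least as many counts as NAS3 in leaf 2, NAS3 itself included, it was the only one with 3 counts or fewer in both protoplast libraries. Both cutoffs equal NAS3's own values, so this count is a description. Just past them, Zm00001d029388 had 21308 counts in leaf 2 and 5 and 2 in protoplasts, at -12.19. Zm00001d005895 had 20167 in leaf 2 and 1 and 9 in protoplasts, at -11.63. Of the 5081 genes with 1000 counts or more in leaf 2, 28 had 3 counts or fewer in both protoplast libraries, and the next most counted after NAS3 was Zm00001d024037 with 9859 counts in leaf 2. By fitted log2 fold change NAS3 stood 9th from the most negative of 9017 genes. Fitted values for genes with so few counts in 1 group depend on the small count that the fit adds, so this order is a description.

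**Figure D2:**
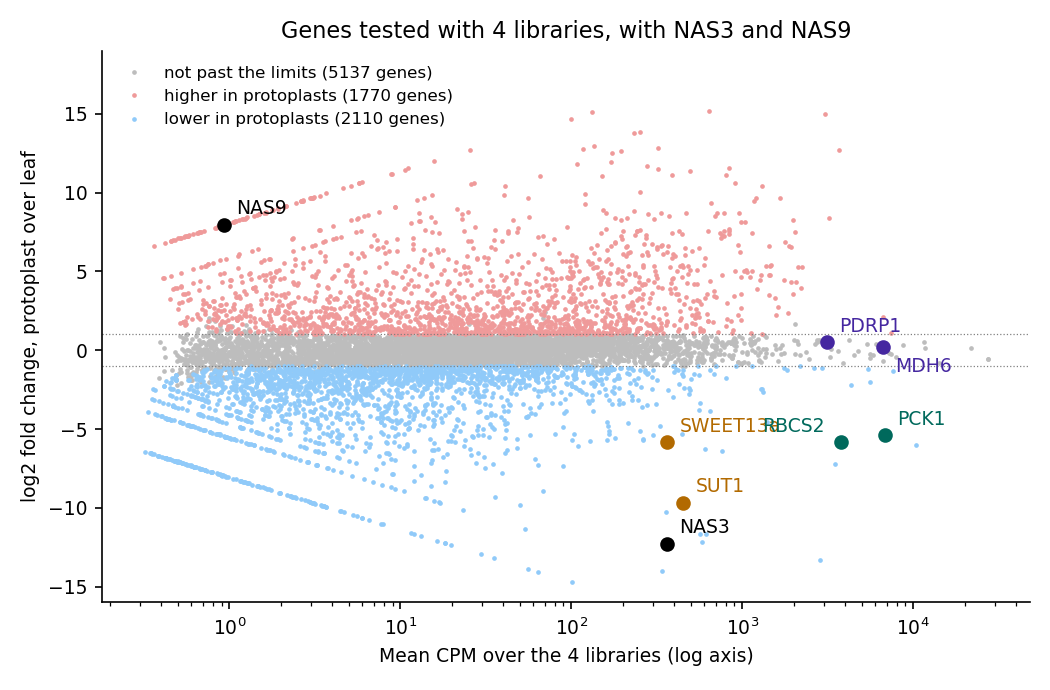
Each point is a gene tested with 4 libraries, placed by its mean CPM over the libraries (horizontal axis, logarithmic) and its fitted log2 fold change, protoplast over leaf (vertical axis), with dotted lines at 1 and -1. NAS3 lies at -12.27, below SUT1 at -9.67, SWEET13a at -5.83, RBCS2 at -5.84 and PCK1 at -5.41, and NAS9 lies at 7.96 on the line formed by genes at 0 in both leaf libraries. The mesophyll genes MDH6 and PDRP1 lie near 0, at 0.19 and 0.50.

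The fold decrease of NAS3 was larger than that of any bundle sheath or phloem gene listed, all of which were lower in protoplasts. The ratio of NAS3 counts to those of another gene in the same library does not depend on library scaling. SUT1, which encodes the sucrose importer that loads the phloem, had 18802 and 15269 counts in leaf and 19 and 13 in protoplasts. The log2 ratio of NAS3 to SUT1 was -0.32 ± 0.036 in leaf against -3.18 ± 1.51 in protoplasts (SD, n = 2 each). The protoplast mean was thus lower by more than the replicates differed, with a difference of -2.86. An exact two-sided permutation test gave p = 0.333, the smallest p that 2 libraries against 2 allow. SUT1 itself fell 818-fold, with an exact 95% interval of 579 to 1196 for counting error, which did not overlap that of NAS3. In protoplast 2 the ratio of NAS3 to SUT1 was 0.231, with a counting interval of 0.0422 to 0.840 that reached the leaf ratios of 0.788 and 0.816, whereas in protoplast 1 it was 0.0526, with an interval of 0.00127 to 0.331 that did not.

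Against the SWEET13 genes, whose products release sucrose towards the phloem, the gap was wider. The log2 ratio of NAS3 to the summed counts of SWEET13a, SWEET13b and SWEET13c was -0.92 ± 0.036 in leaf against -7.54 ± 1.92 in protoplasts (SD, n = 2 each), a difference of -6.62. Against the 3 bundle sheath C4 genes counted in all 4 libraries (RBCS2, PCK1 and FBPA) it was -5.84 ± 0.038 in leaf against -12.64 ± 1.31 in protoplasts (SD, n = 2 each), a difference of -6.80. Both differences exceeded the spread between replicates, with the same exact permutation p of 0.333, and all 3 ratios were lower in 2 of 2 protoplast libraries. The part of the bundle sheath and phloem lists in the decrease of NAS3 was not tested beyond these ratios.

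**Figure D3:**
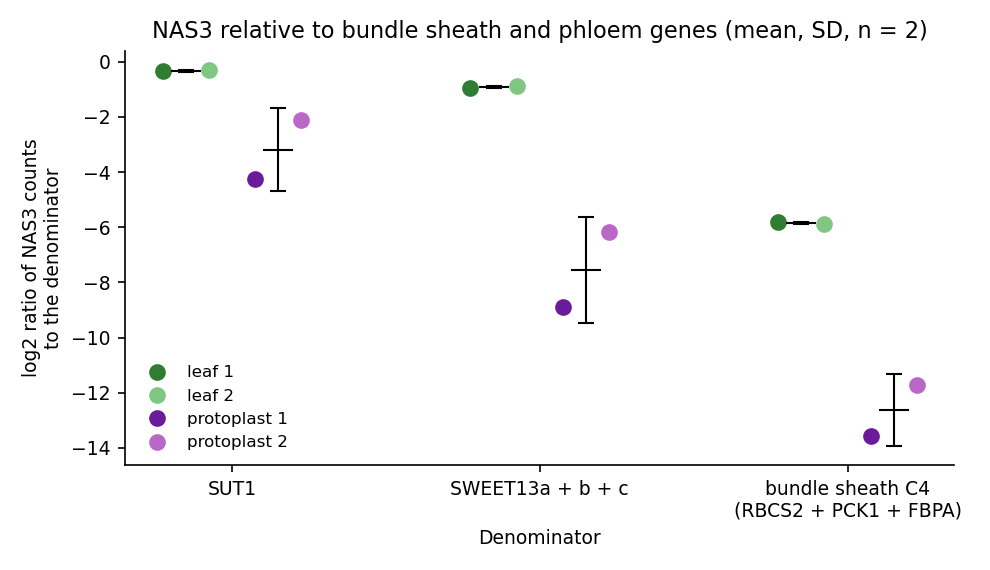
The log2 ratio of NAS3 counts to SUT1, to the 3 summed SWEET13 genes and to 3 summed bundle sheath C4 genes in each library (points), with the group mean and SD (bars, n = 2). The protoplast points lie below the leaf points for each denominator, with mean differences of -2.86, -6.62 and -6.80.

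The genes most like NAS3 over the 4 libraries were also near 0 in protoplasts. Likeness was the Euclidean distance between centred log2 CPM values (pseudocount 0.5) over 4 libraries, and with so few libraries it mainly finds genes with a fall of similar size. The nearest of the other 9016 genes tested were Zm00001d024037 on chromosome 10 (distance 0.53), Zm00001d005895 on chromosome 2 (0.58) and Zm00001d029388 on chromosome 1 (0.71), none of which is named in the sources used here. Zm00001d024037 had 16085 and 9859 counts in leaf and 1 and 0 in protoplasts. Zm00001d005895 had 22266 and 20167 in leaf and 1 and 9 in protoplasts, and Zm00001d029388 had 22493 and 21308 in leaf and 5 and 2 in protoplasts. SUT1 came next in this order, at a distance of 1.06. Zm00001d005895 has a counted length of 297 bp, so per kilobase its level in leaf 2 (1372 CPM) exceeded that of NAS3 (216 CPM), which in turn exceeded that of Zm00001d024037 (93.4 CPM).

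NAS9 and NAS2, the chromosome 1 pair, were found in protoplasts and nearly absent from leaf. NAS9 was at 0 in both leaf libraries and at 1.93 and 1.78 CPM in the protoplast libraries, on the scale of the genes counted in all 4 libraries. Taking 3 counts over the leaf group as the limit that a count of 0 allows, NAS9 was 23.4-fold higher in protoplasts, and 10.7-fold against leaf 2 alone. Both values take the protoplast counts as exact, so they are not lower ends of an interval. The fitted log2 fold change of NAS9 was 7.96 (standard error 0.88, edgeR adjusted p = 0.000819), a value that depends on the small count that the fit adds. Such a pattern was shared with other genes: 6995 of the 18609 genes with 4 libraries were at 0 in both leaf libraries, and 46 of these had at least as many counts as NAS9 in both protoplast libraries, NAS9 included.

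NAS2 had 17 counts over the protoplast libraries and 1 over the leaf libraries. The ratio of protoplast to leaf was 22.1, with an exact 95% interval of 3.47 to 925 for counting error. In the fit of the complete libraries, where leaf 2 holds 0 NAS2 counts, its log2 fold change was 6.17 (standard error 2.21, edgeR adjusted p = 0.0453), just past the limit. DESeq2 gave an adjusted p of 0.148, the highest of the alternatives, which ranged from 0.00975 upwards. The filter kept NAS2 out of the test with 4 libraries. Without the filter it was called there, at 4.07 (standard error 1.25, edgeR adjusted p = 0.00467), and with leaf 2 left out it was not, at 3.32 (adjusted p = 0.0905 from the same test).

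NAS10 and NAS1, the chromosome 9 pair, were at the edge of detection. NAS10 had 0 counts in leaf 2 and 5 and 2 in the protoplast libraries. NAS1 had 0 and then 3 and 2. Both were too low for the filter and have no test. Both protoplast libraries lay above leaf 2 for each gene. Against 3 counts in leaf 2, NAS10 was 1.39-fold higher in protoplasts, with the few protoplast counts taken as exact. Without protoplast 1 this value was 0.892, so that any difference rests on protoplast 1. For NAS1 a difference was not detectable at this depth. Reads shared by NAS1 and NAS10 could have been split between them or left out by the counting, so their values are uncertain.

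NAS6 went the other way from NAS9 and NAS2, at low counts. It had 8 counts in leaf 2 against 1 and 0 in the protoplast libraries, and it did not pass the filter. Leaf 2 exceeded the protoplast libraries 13.4-fold, with an exact 95% interval of 1.80 to 595 for counting error. Without protoplast 2 the ratio was 7.43, with an interval of 0.996 to 330 that included 1.

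Per kilobase of counted length, the order of the members differed between the groups. In leaf 2, NAS3 stood at 216 CPM per kb on the scale of the complete libraries, NAS6 at 0.0367, and the other 4 members at 0. In protoplasts NAS9 was highest, at 0.359 ± 0.021 CPM per kb (SD, n = 2). NAS2 followed at 0.110 ± 0.049, NAS10 at 0.0676 ± 0.032, NAS1 at 0.0494 ± 0.0066 and NAS3 at 0.0441 ± 0.036 (all SD, n = 2). NAS9 lay above NAS2 in both protoplast libraries, at 0.374 and 0.344 against 0.145 and 0.0748. Neighbours further down this order (NAS2 and NAS10, NAS10 and NAS1, NAS1 and NAS3) did not differ beyond their spread.

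As a share of all NAS counts, NAS3 made up 12456 of 12456 in leaf 2, where each of the other 4 members was at 0, which allows a share of up to 0.0241%. In protoplast 1 it made up 1 of 52 counts, or 1.92% (95% Wilson interval 0.340 to 10.1%), and in protoplast 2 it made up 3 of 35, or 8.57% (2.96 to 22.4%). NAS9 made up 59.6% (46.1 to 71.8%) and 65.7% (49.2 to 79.2%) of the protoplast counts. NAS2 made up 23.1% (13.7 to 36.1%) and 14.3% (6.26 to 29.4%). For each of the 5 members the intervals of the 2 protoplast libraries overlapped.

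In the counts as deposited, the gain of NAS9 and NAS2 was small beside the loss of NAS3. NAS2 and NAS9 have the same counted length, and how the counting treated reads that map to both is not given in the sources used here, so their separate counts are uncertain. If such reads were left out, the sum would be too low as well. The shares and the order per kilobase above carry the same limit. Summed, the pair had 1 and 0 counts in leaf against 43 and 28 in protoplasts. The ratio of protoplast to leaf was 92.4, with an exact 95% interval of 16.1 to 3702, and the fitted log2 fold change was 6.17 (edgeR adjusted p = 0.00044). The fitted value was 8.24 without leaf 1, the library with the single count, and 5.38 without leaf 2. NAS1 and NAS10 summed to 0 in leaf 2 against 8 and 4 in protoplasts, without a test because of the filter. Against the limit that a count of 0 allows in leaf 2, their sum was 2.39-fold higher in protoplasts. This value takes the protoplast counts as exact, so it is not a lower end of an interval. It was 2.87 with protoplast 1 alone and 1.78 with protoplast 2 alone. All 5 members summed to 12456, 52 and 35, so that leaf 2 exceeded the protoplast libraries 240-fold (exact interval 194 to 300) and the fitted log2 fold change was -7.91 (edgeR adjusted p = 7.21e-07).

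Genes of phytosiderophore synthesis and transport were not called. The list of phytosiderophore genes, like the other lists below, was drawn from gene names in the study's supplementary tables. Those tables include the study's own lists of mRNAs enriched in or depleted from protoplasts. A gene could thus be listed because it changed in these libraries. Apart from NAS6, its 4 genes were tested and 0 were called in either direction. Of all genes tested, 43.0% were called with 4 libraries and 38.9% with the complete libraries. With only 4 genes, the absence of calls is a description. NAAT1, the nicotianamine aminotransferase of phytosiderophore synthesis, had 76 counts in leaf 2 against 64 and 42 in protoplasts (log2 fold change -0.28, standard error 0.43). YS1, the transporter that takes up iron bound to phytosiderophores, had 471 against 499 and 334 (log2 fold change 0.06, standard error 0.23). YS1 in leaf 2 lay between its protoplast counts. TAAT, a tyrosine aminotransferase, was at 0.20 and YSL7, of the yellow stripe-like transporter family, at 0.15, and the signs of YS1, TAAT and YSL7 turned when libraries were scaled by their totals. The median of the 4 was 0.13 in the fit of complete libraries, against -0.04 over the 23262 genes tested. At an unadjusted p under 0.05 none of them passed, and DESeq2 and limma-voom also called 0.

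The listed genes that supply SAM and recycle what nicotianamine synthase leaves over were mostly lower in protoplasts. Of the 13 genes of methionine and SAM metabolism, 10 were called as lower and 1 as higher. With both leaf libraries 4 of 5 were lower, beside 23.4% of all genes tested, and with leaf 2 alone 6 of 8, beside 20.4%. These shares are a description, since genes could enter the list through their change in these same libraries. The 5 with both leaf libraries had a median log2 fold change of -1.50, against -0.02 over the 9017 genes tested. The 8 with leaf 2 alone had a median of -1.93, against -0.04. All 3 listed SAM synthase genes, which make the substrate of NAS from methionine, fell. Zm00001d024754 had 8255 and 6488 counts in leaf and 1545 and 1039 in protoplasts, and its log2 fold change was -2.14 (standard error 0.16, edgeR adjusted p = 7.58e-05). Zm00001d010920 had 4864 in leaf 2 and 326 and 174 in protoplasts, at -4.05, and Zm00001d009146 was at -2.20. No count of these genes in protoplasts reached the leaf counts.

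The salvage enzymes of the methionine cycle, which return the methylthioadenosine left by NAS to methionine, moved the same way. The methylthioribose-1-phosphate isomerase gene (Zm00001d049042) had 302 counts in leaf 2 and 45 and 8 in protoplasts, at -3.30 (standard error 0.68, edgeR adjusted p = 0.0116). The next enzyme, methylthioribulose-1-phosphate dehydratase/enolase-phosphatase (Zm00001d049191), fell by 2.29 and adenine phosphoribosyltransferase 1 (Zm00001d030895), which salvages the adenine, by 1.45. Both listed cystathionine gamma-synthase genes, for the first committed step of methionine synthesis, fell, Zm00001d047166 by 1.66 and Zm00001d029324 by 1.50. Adenosylhomocysteinase (Zm00001d049239), which clears the product of SAM-dependent methylation, fell by 1.38.

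The list held 1 gene called as higher and 2 that were not called. Homocysteine S-methyltransferase 1 (Zm00001d048060), which forms methionine from homocysteine, rose from 179 counts in leaf 2 to 1882 and 1917 in protoplasts, at 3.68 (standard error 0.32, edgeR adjusted p = 1.71e-05). Of the SAM decarboxylase genes, which divert SAM to polyamines, Zm00001d025773 fell by 1.76. Zm00001d003157, with 78436 to 125192 counts in every library, was at 0.30 (adjusted p = 0.163 from the same test), and cystathionine beta-lyase at -0.07. The summed bundle sheath genes stood at 26351 CPM in leaf 2 and at most 549 CPM in protoplasts, and their part in the lower counts of this list was not tested.

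**Figure D4:**
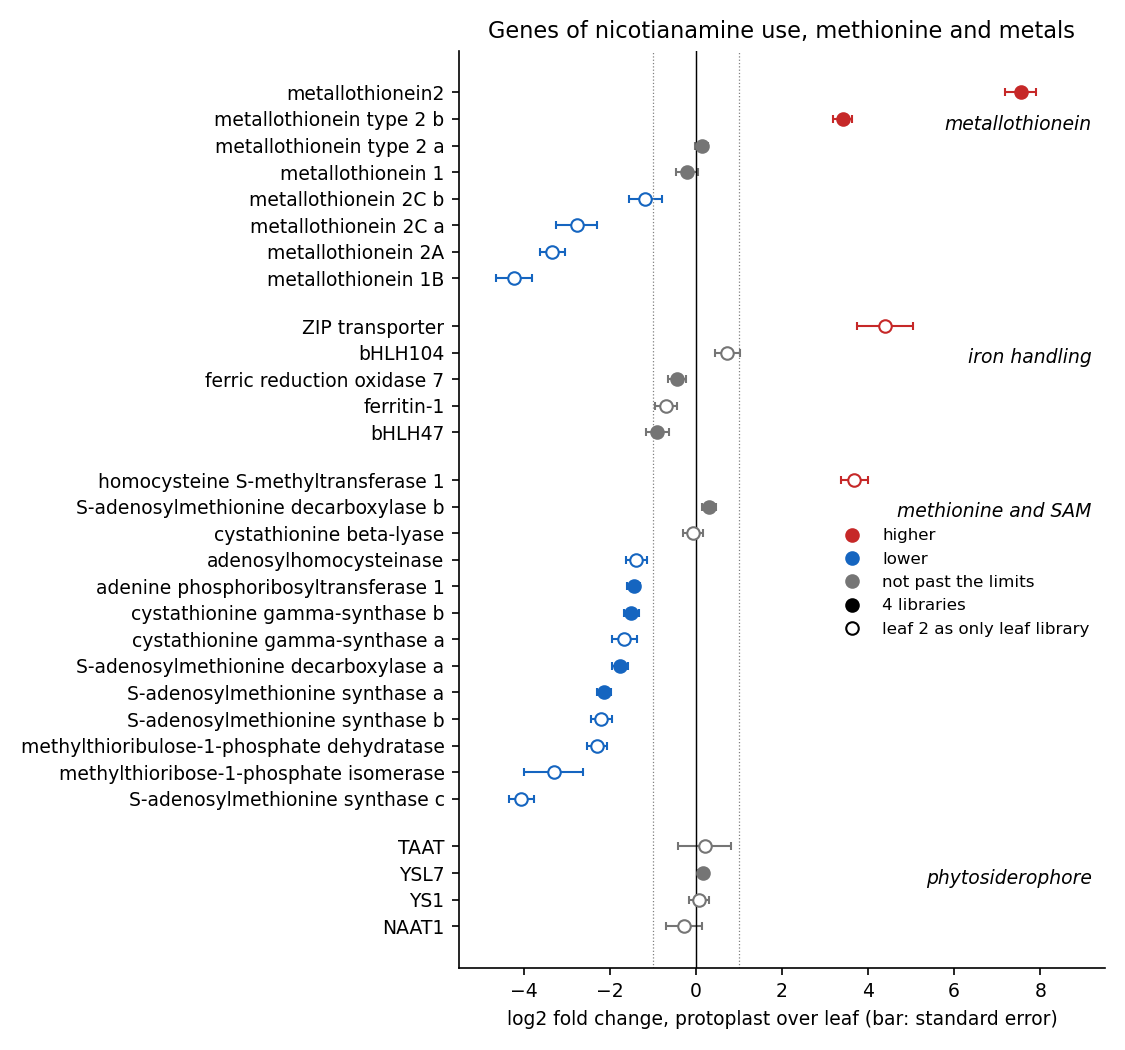
Log2 fold changes (protoplast over leaf, horizontal axis) with standard errors (bars) for the 30 tested genes of the 4 lists, with dotted lines at 1 and -1. Filled points come from the fit of 4 libraries and open points from the fit with leaf 2 as the only leaf library. The 3 SAM synthase genes lie between -4.05 and -2.14, the phytosiderophore genes between -0.28 and 0.20, and the metallothionein genes spread from -4.23 to 7.55.

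Iron-handling genes outside nicotianamine synthesis showed 1 call among 5, beside the 43.0% and 38.9% of all genes called in the 2 fits. The ZIP transporter gene (Zm00001d019228), of a family of zinc and iron importers, rose from 8 counts in leaf 2 to 106 and 170 in protoplasts, at 4.39 (standard error 0.65, edgeR adjusted p = 0.000717). Ferritin-1, the iron storage protein, had a log2 fold change of -0.69 (adjusted p = 0.0529) and ferric reduction oxidase 7 one of -0.44 (adjusted p = 0.0977). The genes of bHLH47 and bHLH104, named after transcription factors that regulate the iron deficiency response in Arabidopsis, were at -0.90 (adjusted p = 0.0258) and 0.73 (adjusted p = 0.0671). The value of bHLH47 depended on the libraries. It was -0.60 without leaf 1 (adjusted p = 0.0805 from edgeR) and -0.64 without protoplast 2 (0.126), and its adjusted p was 0.065 without the filter. It was past the limits without leaf 2 (-1.20), without protoplast 1 (-1.27) and under scaling by the mesophyll genes (-1.21), and both it and ferritin-1 were past them when libraries were scaled by their totals (-1.18 and -1.05).

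Metallothionein genes, for small cysteine-rich proteins that bind zinc and copper, moved in both directions. Of 8 genes, 2 were called as higher and 4 as lower. Calls either way made up 43.0% of all genes tested with both leaf libraries, which the 2 higher genes and 2 others of the list had, and 38.9% of those tested with leaf 2 alone, which the 4 lower genes had. Metallothionein2 (Zm00001d029778) had 120 and 54 counts in leaf and 11972 and 12355 in protoplasts, at 7.55 (standard error 0.37, edgeR adjusted p = 1.51e-05), the widest of the 4 lists. Metallothionein 1B (Zm00001d048611) had 78034 counts in leaf 2 and 5077 and 2130 in protoplasts, at -4.23. Zm00001d039859 rose by 3.41, while metallothionein 2A (Zm00001d008620) fell by 3.34 and the metallothionein 2C genes by 2.77 (Zm00001d035659) and 1.17 (Zm00001d035662). Reads of such close paralogs could have been split or left out by the counting. Over all 4 lists, 30 of 31 genes were tested, 4 were called as higher and 14 as lower. With both leaf libraries 2 of 12 were higher and 4 lower (19.6% and 23.4% of all genes tested), and with leaf 2 alone 2 of 18 were higher and 10 lower (18.5% and 20.4%).

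The annotated neighbours of the NAS genes moved in both directions. Of the 36 genes within 5 annotated genes on either side of a member, 15 were tested. With both leaf libraries, 5 of 10 neighbours on chromosome 1 were called, 3 as higher and 2 as lower, near the background of 43.0%. None of the 7 tested neighbours of NAS3 fell as NAS3 did. Zm00001d033493, which had 88 and 98 counts in leaf and 27 and 15 in protoplasts, fell by 1.78, while Zm00001d033492 and Zm00001d033504 rose by 2.19 and 2.54. The gene before NAS9, Zm00001d028886, had 5 and 4 counts in leaf and 16 and 15 in protoplasts, at 2.14 (edgeR adjusted p = 0.0082) that was no longer called without leaf 1 (adjusted p = 0.084) or without leaf 2 (0.093). Zm00001d028890, beyond NAS2, fell by 1.55. The gene between NAS9 and NAS2, Zm00001d022724, had 2 to 4 counts in every library and was not tested.

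On chromosome 9, where leaf 2 was the only leaf library, 5 neighbours were tested and all lay on the far side of NAS10 from NAS1. Called as higher were 3 of them, and 1 as lower, against a background of 38.9%. Zm00001d047664, named as a multidrug resistance protein of the ABC transporter family, had 56 counts in leaf 2 and 21023 and 25548 in protoplasts, at 8.98 (standard error 0.57, edgeR adjusted p = 3.50e-06). Zm00001d047663, named as the peroxisomal acetate/butyrate--CoA ligase AAE7, had 66, 3110 and 3728, at 5.98. Both exceeded leaf 2 in each protoplast library. Zm00001d047659, next to NAS10, had 27, 122 and 163 (2.68), and Zm00001d047661 fell from 311 to 8 and 12 (-4.67). The 10 neighbours of NAS1 had at most 6 counts in any library, and the 5 genes between NAS1 and NAS10 were at 0 throughout. One of those, Zm00001d047656, has the same counted length as NAS10, 1205 bp.

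**Figure D5:**
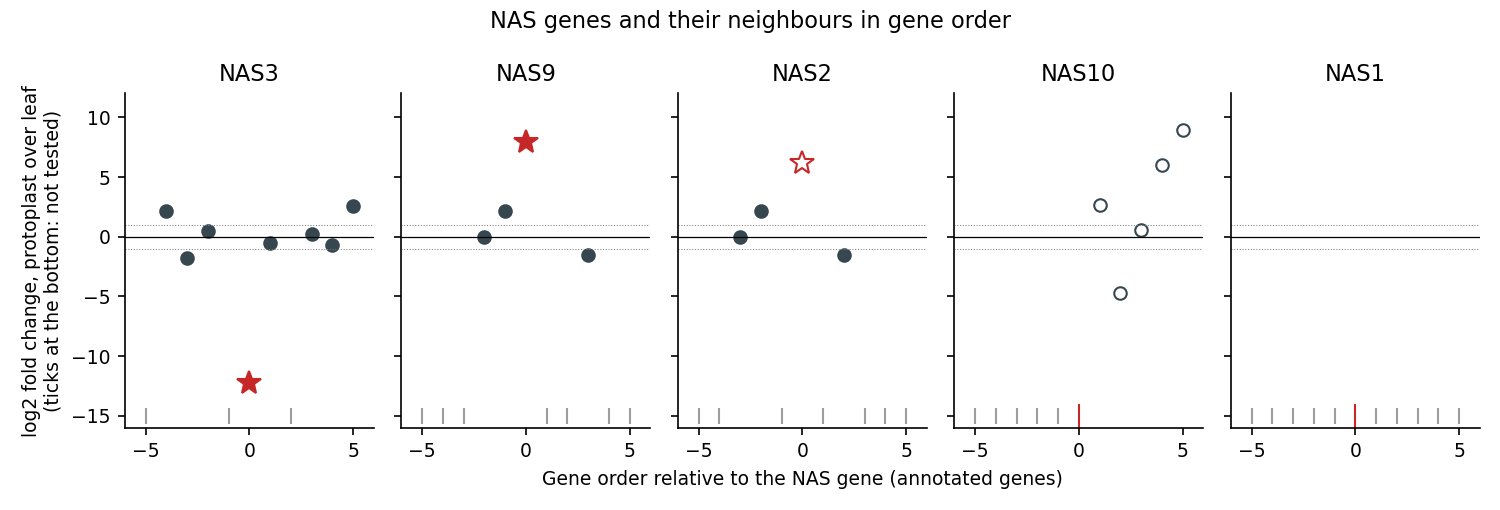
Log2 fold changes (vertical axis) of each member (star) and of the 5 annotated genes on each side, by gene order (horizontal axis). Filled symbols come from the fit of 4 libraries and open symbols from the fit with leaf 2 as the only leaf library, and ticks at the bottom mark genes that were not tested, NAS10 and NAS1 among them in red. NAS3 lies at -12.27 between neighbours at -1.78 to 2.54, and the neighbours of NAS10 reach 8.98.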

How the data were processed

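The authors trimmed reads with Trim Galore 0.6.5, aligned them to AGPv4 with STAR 2.5.1b and deposited raw counts per gene from featureCounts 2.0.1, without normalization. Strand and multi-mapping settings are not given in the sources used here. Groups came from the sample titles. After filterByExpr within groups and TMM scaling, counts went into the robust quasi-likelihood test of edgeR 4.0.16 (R 4.3.3), without a replicate block. DESeq2 1.42.0 and limma 3.58.1 served for alternatives. Adjusted p-values cover all genes tested. Standard errors were derived from each log2 fold change and its F statistic. The scripts were tested on simulated data. Intervals are 95% (exact or Wilson), and like the floor of 3 counts they cover only counting error, as reads carried no molecular identifiers and need not be independent molecules. Members and lists were chosen with earlier results of these data known. Named were all members and NAS6, listed and neighbouring genes past the limits, and the 3 genes most like NAS3. Other listed or neighbouring genes, and genes inside the marker lists, were named after their values were seen. Sequences were not used here. Alternatives changed the scaling, filter, test, block and libraries.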

Additional observations from a re-analysis of the deposited data

How the results depend on the processing

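No call changed direction under the alternatives run. In every fit that tested them, NAS3 was called as lower, between -13.38 and -11.55 on the log2 scale, and NAS9 as higher, between 6.03 and 8.09. The number of members called as higher with 4 libraries rose from 1 to 2 without a filter on low counts, and lay between 1 and 2 when each library was left out in turn, because NAS2 entered the test and was called without leaf 1. Against leaf 2 alone this number fell from 2 to 1 with DESeq2, which did not call NAS2. Requiring at least 10 counts in every library removed every single member and left the sum of all 5. It lowered the listed genes called as higher with leaf 2 alone from 2 to 1 and the neighbours called as lower from 1 to 0, since genes with fewer counts were no longer tested, and over all genes it left 1295 called as lower in place of 2110. Scaling by library totals moved the median log2 fold change from -0.02 to -0.31 with 4 libraries and from -0.04 to -0.40 with the complete ones. In the comparison with leaf 2 alone, leaving out a protoplast library left no residual degrees of freedom, so NAS3 has values there without a test (-11.60 and -13.50), and the members at 0 in leaf 2 have none.

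The numbers in the titles pair leaf 1 with protoplast 1, and their deviations from the group means correlated at -0.21 across 9017 genes. With 2 libraries per group, the crossed pairs give the same value with the opposite sign. This value therefore cannot show whether libraries of the same number share a harvest. With the replicate block NAS3 was at -12.27 and NAS9 at 7.96, with 1731 genes called as higher and 2029 as lower, and with the pairs crossed, an alternative chosen after seeing the data, 1774 and 2128. The block changed no other call of a member, listed gene or neighbour. Depth limits NAS10 and NAS1, whose counts in protoplasts are 5 or fewer.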
